A study of Mus musculus with 5 samples.

Results

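EBF1 sites of the class CTD-ind that lay at gene ends were described. From the list of sites bound by EBF1 in mouse pro-B cells, the members were the sites of that class whose centre was under 1000 bp from either end of any RefSeq gene. The rule took 889 of 2550 CTD-ind sites (34.9%) out of 7494 listed sites, of which 1608 (21.5%) lay at a gene end. Every site was 300 bp wide. The members were thus chosen by the authors' class of each site and by its distance to a gene end, so both percentages are a description. Other gene-end sites served for comparison, 620 of the class YmA-ind and 99 of the class YmA-dep.

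The series holds 5 libraries, 1 in each group, so no value had a replicate. Cells of all groups descended from Ebf1-/- fetal liver cells that had been given EBF1 back by transduction, as EBF1 wt or as the form named YmA, and were labelled pro-B cells, an early stage of the B lineage. The groups were EBF1 ChIP in EBF1 wt cells, EBF1 ChIP in YmA cells, BRG1 ChIP in YmA cells and an input library for each antibody. Only the EBF1 ChIP of EBF1 wt cells gave the site list, and the other 4 libraries were not analysed here. EBF1 was therefore re-expressed from a transduced construct and not from its own gene. The list gives positions and a class name for each site, without height, read depth or score. The making of the classes and the meaning of their names are not given in the labels, so the names serve as labels only. A site list holds no RNA levels, so the cell type could not be checked against expression.

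EBF1 is a transcription factor without which B-cell development stops at an early progenitor stage. It binds DNA as a dimer at a palindrome made of a TCCC arm and a GGGA arm on either side of 2 free bases, and it activates genes of the pre-B-cell receptor. Gene starts often lie in CpG islands, stretches of high GC content that keep their CpG dinucleotides. Many mammalian genes share such a region with a neighbour transcribed in the opposite direction, an arrangement called a divergent promoter.

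Sequences of gene starts show what lay at the members. The letters searched were TCCC and GGGA with any 2 bases between them, called the full palindrome below, which reads the same on both strands. The search used RefSeq promoter windows of GRCm38.p6 that run from 250 bases before a start to 50 bases after it. The following 5 stretches lay under sites at the starts of genes with a full match, given in capitals. Each is written 5′ to 3′ along its gene, and each lay outside every annotated gene.
Foxo1 (chr3:52268220-52268279, plus strand): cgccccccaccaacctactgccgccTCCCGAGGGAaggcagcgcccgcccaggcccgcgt
Il2rg (chrX:101268320-101268379, minus strand): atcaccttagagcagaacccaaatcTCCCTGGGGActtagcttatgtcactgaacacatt
Arpc5 (chr1:152766490-152766541, plus strand): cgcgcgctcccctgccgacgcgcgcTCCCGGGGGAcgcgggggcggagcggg
Vav3 (chr3:109340433-109340464, plus strand): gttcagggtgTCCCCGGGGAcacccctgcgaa
2010320M18Rik (chr8:70776805-70776861, plus strand): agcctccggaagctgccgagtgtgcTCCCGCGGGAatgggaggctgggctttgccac
The matches were centred 14 bp, 25 bp, 4 bp, 17 bp and 6 bp from the centre of their site, in that order. Foxo1 encodes a transcription factor of early B cells, Il2rg the common gamma chain of the interleukin-7 receptor, Arpc5 a subunit of the Arp2/3 actin nucleator and Vav3 a guanine exchange factor for small GTPases. 2010320M18Rik is a non-coding gene that shares its site with Pik3r2, a regulatory subunit of phosphoinositide 3-kinase.

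More members had a match with 1 letter off. The next 4 stretches carry such a near match in capitals, and they stand for genes outside the B-lineage lists.
Cebpb (chr2:167688681-167688740, plus strand): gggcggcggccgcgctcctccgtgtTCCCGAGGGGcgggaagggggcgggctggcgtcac
Ube2n (chr10:95515046-95515105, plus strand): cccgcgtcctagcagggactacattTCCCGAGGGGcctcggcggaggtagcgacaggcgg
Eif2b2 (chr12:85219321-85219380, plus strand): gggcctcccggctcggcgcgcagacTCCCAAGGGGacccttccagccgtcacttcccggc
Tmem222 (chr4:133277792-133277851, minus strand): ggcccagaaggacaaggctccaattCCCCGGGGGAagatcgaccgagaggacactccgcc
These matches lay 1 bp, 1 bp, 3 bp and 6 bp from the centre of their site. Cebpb encodes a myeloid transcription factor, Ube2n an E2 ubiquitin-conjugating enzyme and Eif2b2 a subunit of the exchange factor for translation initiation factor eIF2.

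Neither a full match nor a match with 1 letter off was present in the searched windows of Cd79a, Vpreb1 or Igll1. The stretch of the Cd79a site upstream of its start is shown in lower case for that reason.
Cd79a (chr7:24897247-24897493, plus strand): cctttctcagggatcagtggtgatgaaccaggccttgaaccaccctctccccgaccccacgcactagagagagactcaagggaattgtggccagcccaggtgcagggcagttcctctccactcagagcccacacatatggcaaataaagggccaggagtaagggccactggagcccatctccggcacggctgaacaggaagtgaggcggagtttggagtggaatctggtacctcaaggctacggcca
Absence of these letters in the window says nothing about binding there. Stretches with more than 1 letter off the palindrome were not searched for, so a weaker EBF site could lie in these windows. The Cd79a stretch above holds actcaaggga, with an intact GGGA arm and more than 1 letter off in the other arm. Binding of EBF1 to it was not tested.

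A promoter window overlapped 363 of the 889 members. A site was counted if any window that overlapped it held the letters, whereas shares of all windows are per single window. Sites with several windows had more sequence to match, so the 2 kinds of share are not fully alike. The full palindrome was present at 43 of them, a share of 11.8% (exact 95% binomial interval 8.71 to 15.6), where 0.908% of all 32585 promoter windows held it. Among YmA-ind gene-end sites 9 of 137 had the letters (6.57%, interval 3.05 to 12.1), and the difference of 5.28 percentage points did not pass the test (two-sided Fisher's exact test, odds ratio 1.91, adjusted p = 0.141). With protein-coding genes only, the difference was 10.2 percentage points and passed (Fisher's exact test, adjusted p = 0.00484). Among YmA-dep sites 0 of 7 had them, which allows a share of up to 41.0%. The shorter TCCCNNGGG was searched on both strands and overlaps with the full palindrome. It was present at 143 members (39.4%) and at 40 YmA-ind sites (29.2%), against 6.6% of all windows. CCCNNGGG, its own reverse complement, was present at 187 members (51.5%) and at 50 YmA-ind sites (36.5%), against 13.8% of all windows. With at most 1 letter off, the palindrome was present at 208 members (57.3%) and at 69 YmA-ind sites (50.4%), and this difference of 6.94 percentage points did not pass (Fisher's exact test, adjusted p = 0.19). Of all windows, 16.6% held such a match.

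The matches lay close to the centre of the sites. Of 43 full matches within 150 bp of a centre, 36 lay within 25 bp of it, at a median of 10.0 bp. Their density was 1.56 per kb within 50 bp and 0.117 per kb farther out. For TCCCNNGGG, 144 of 193 matches lay within 25 bp, with 6.93 per kb within 50 bp and 0.558 per kb beyond. Each full palindrome entered these counts on either strand, so the matches are not all separate places. The 193 matches lay at 130 of 363 members. YmA-ind sites had 8 full matches, 6 of them within 25 bp.

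**Figure D1:**
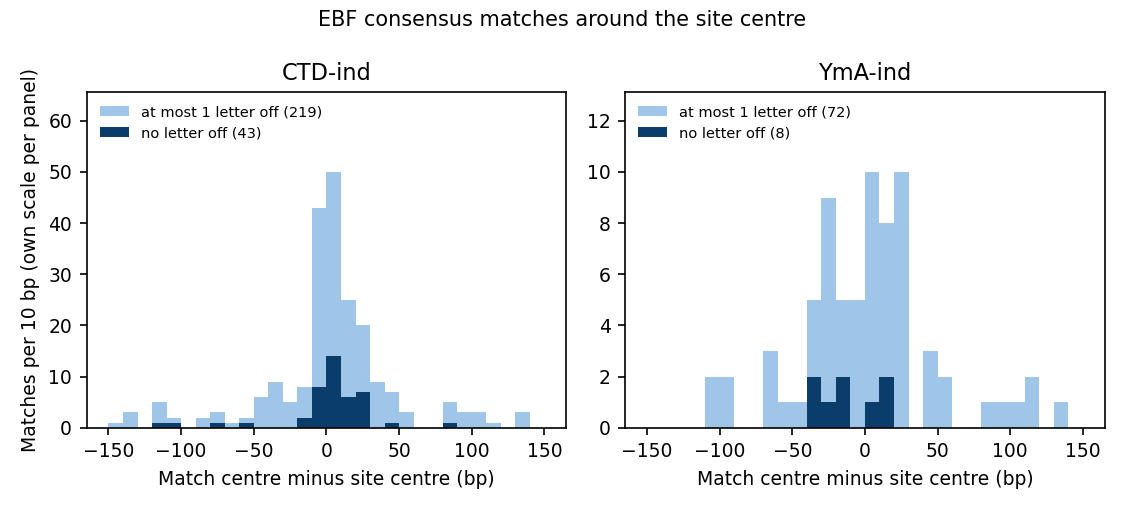
Position of each match to the EBF consensus relative to the site centre (x axis, bp) as the number of matches per 10 bp (y axis, own scale in each panel), for gene-end sites of the classes CTD-ind (left) and YmA-ind (right). Dark bars are full matches and light bars matches with at most 1 letter off. Of the 43 full matches at CTD-ind sites, 36 lie within 25 bp of the centre.

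The base composition of these windows differed between the classes, and it bears on any motif count. The median GC content was 64.3% in windows of CTD-ind sites, 57.0% in windows of YmA-ind sites and 53.0% in all windows. The median ratio of observed to expected CpG was 0.793, 0.534 and 0.386 in the same order. A window with GC above 50% and a CpG ratio above 0.6 was counted as CpG-rich. Such windows lay at 270 of 363 CTD-ind sites (74.4%, interval 69.6 to 78.8) and at 57 of 137 YmA-ind sites (41.6%, interval 33.3 to 50.3). The difference passed (two-sided Fisher's exact test, odds ratio 4.07, adjusted p = 6.32e-11 over 4 comparisons chosen after the data were seen). GGGCGG, the GC box read by SP and KLF factors, was present at 68.3% of the members with a window, at 50.4% of such YmA-ind sites and in 35.9% of all windows. CCGGAAG, an ETS-type sequence, was present at 22.6% of these members, at 19.7% of these YmA-ind sites and in 8.92% of all windows. CCAAT, the NF-Y box, was present at 38.8% of these members, at 35.8% of these YmA-ind sites and in 37.6% of all windows. TATAAA, the TATA box, was present at 6.34% of these members, at 6.57% of these YmA-ind sites and in 13.7% of all windows. These letters were searched on both strands and are a description. As above, a site was counted if any of its windows held them, and shares of all windows are per window. They share the base composition above, and its part in the counts was not tested.

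Distance to a gene end chose the members, so its values are given as a description, with no test. The median distance from the site centre to the nearest end was 291.0 bp, with quartiles of 113.0 and 538.0 bp and a range of 0 to 996 bp. Of the 889 members, 107 were under 50 bp away (12.0%), 204 under 100 bp (22.9%) and 639 under 500 bp (71.9%). The YmA-ind sites had a median of 362.0 bp, with 111 of 620 under 100 bp (17.9%), and the YmA-dep sites a median of 342.0 bp, with 16 of 99 under 100 bp (16.2%).

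Where the strand of the nearest gene was known, members lay mostly at starts. The nearest end was a start for 609 of 697 such members (87.4%, interval 84.7 to 89.7). Among YmA-ind sites it was a start for 296 of 442 (67.0%, interval 62.4 to 71.3), and among YmA-dep sites for 29 of 53 (54.7%, interval 40.4 to 68.4). Both differences passed (two-sided Fisher's exact test, adjusted p = 1.28e-15 with an odds ratio of 3.41, and adjusted p = 1.09e-07 with an odds ratio of 5.73). The strand was unknown for the nearest gene of the other 192 members.

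Around the start, members stood on both sides. Of the 609 members, 271 (44.5%) were centred upstream, 335 downstream and 3 on the start itself, and the median was 41.0 bp downstream. In the 200 bp before the start lay 150 members, in the first 200 bp after it 105, and from 200 to 500 bp after it 135. YmA-ind sites were upstream in 156 of 296 cases (52.7%), with a median offset of -20.5 bp (negative upstream). The difference of -8.2 percentage points in the upstream share passed (two-sided Fisher's exact test, odds ratio 0.72, adjusted p = 0.0308), and it was lost with ends under 500 bp (-7.64 percentage points, adjusted p = 0.163) and with the nearest edge in place of the centre (-6.84 percentage points, adjusted p = 0.063). A start here is the outermost start of a gene. Of the 1661 CTD-ind sites that were not members, 99 lay near another annotated start inside a gene.

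**Figure D2:**
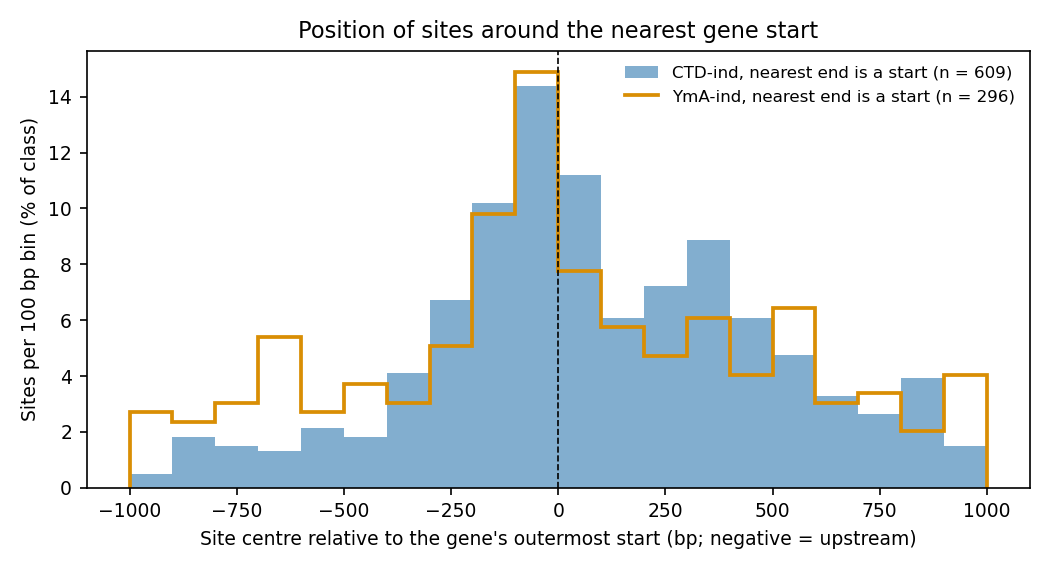
Share of sites per 100 bp (y axis, percent of the class) by the offset of the site centre from the nearest gene start (x axis, bp, negative upstream), for 609 CTD-ind sites (filled) and 296 YmA-ind sites (line). The fullest bin of both classes is the 100 bp before the start, with 14.4% and 14.9% of sites, and CTD-ind sites form a broad shoulder from 200 to 500 bp downstream.

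Most members lay at protein-coding genes. A protein-coding gene was among the ends of 738 of 889 members (83.0%, interval 80.4 to 85.4), of 398 of 620 YmA-ind sites (64.2%, interval 60.3 to 68.0) and of 34 of 99 YmA-dep sites (34.3%, interval 25.1 to 44.6). Both differences passed (two-sided Fisher's exact test, odds ratio 2.73 with adjusted p = 9.97e-16, and odds ratio 9.34 with adjusted p = 2.68e-22). The difference from YmA-ind was 18.8 percentage points. Without predicted genes named Gm or Rik it was 7.63 percentage points and still passed (exact test, adjusted p = 5.51e-07). RefSeq gives antigen-receptor gene segments a biotype of their own, so they were not counted as protein-coding. With them counted as coding, an alternative chosen after the data were seen, the shares were 83.4%, 66.8% and 48.5%, and both differences passed (exact test, adjusted p = 6.18e-13 for either). Only protein-coding ends were near 648 members, both kinds near 90 and only ends of other biotypes near 151. Counting the nearest end alone, 701 members (78.9%) had a protein-coding gene, 151 (17.0%) a long non-coding RNA gene, 13 a pseudogene and 10 a microRNA gene. Antigen-receptor V segments were the nearest gene of 3 members, 15 YmA-ind sites and 12 YmA-dep sites.

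In all, 1080 genes had a member at an end, which is 2.19% of the 49209 genes searched. They were 832 protein-coding genes (3.87% of 21521), 193 long non-coding RNA genes and 55 others. A YmA-ind gene-end site lay at 39 of the 1080 genes as well, and a YmA-dep site at 3, namely Gm4610, Gm46922 and the immunoglobulin kappa segment Igkv6-13. Over all 49209 genes, YmA-ind sites made 716 pairs of a site and a gene, and YmA-dep sites 112. The share of all genes with such a site was not computed, so the 39 and the 3 cannot be read as low or high sharing.

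A centre outside every gene was found for 312 members (35.1%), for 33.7% of YmA-ind sites and for 24.2% of YmA-dep sites. Neither difference passed (two-sided Fisher's exact test, 1.39 percentage points with adjusted p = 0.627, and 10.9 percentage points with adjusted p = 0.0519). Measured from the nearest edge of the site, the difference from YmA-ind turned to -4.91 percentage points (exact test, adjusted p = 0.0304). Members less often had another listed site under 10 kb away than YmA-ind sites, 236 members (26.5%) against 204 sites (32.9%), a difference of -6.36 percentage points (Fisher's exact test, odds ratio 0.737, adjusted p = 0.0189). That call was lost with 1 site kept per run of neighbouring sites (-4.78 percentage points, exact test, adjusted p = 0.072). Of the 236, 110 had a CTD-ind neighbour, 136 a YmA-ind neighbour and 29 a YmA-dep neighbour.

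**Figure D3:**
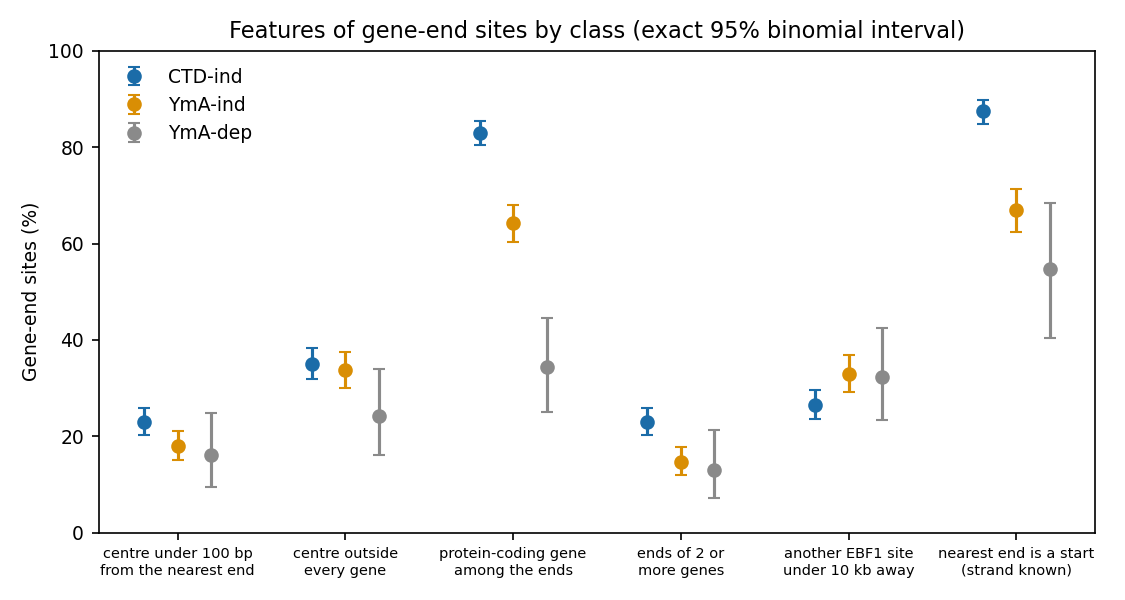
Share of gene-end sites (y axis, percent) with each of 6 features (x axis), for the classes CTD-ind, YmA-ind and YmA-dep. Points are shares and bars exact 95% binomial intervals, which cover counting error only. The classes stand farthest apart in the share with a protein-coding gene (83.0%, 64.2% and 34.3%) and in the share at a start (87.4%, 67.0% and 54.7%).

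Ends of 2 or more genes lay near 204 members (22.9%), near 91 YmA-ind sites (14.7%) and near 13 YmA-dep sites (13.1%). The difference of 8.27 percentage points from YmA-ind passed (two-sided Fisher's exact test, odds ratio 1.73, adjusted p = 0.000202), and that of 9.82 from YmA-dep did not (adjusted p = 0.0505). With protein-coding genes only, the difference from YmA-ind was 1.34 percentage points and did not pass (exact test, adjusted p = 0.834).

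The shared ends were mostly starts of genes on opposite strands. Of the 204 members, 104 lay at such a pair, 28 at a start and an end, 5 at starts on the same strand and 4 at a pair of ends, and for 63 a strand was unknown. Among members with both strands known, 104 of 141 lay at opposite starts (73.8%, interval 65.7 to 80.8), against 30 of 57 YmA-ind sites (52.6%, interval 39.0 to 66.0). This difference passed (two-sided Fisher's exact test, odds ratio 2.53, adjusted p = 0.0137), but not with ends under 500 bp (15.2 percentage points, adjusted p = 0.166). Of these 104 sites, 61 lay at 2 protein-coding genes, 41 at a protein-coding and a non-coding gene and 2 at non-coding genes. A pair of genes with 2 sites is counted at each. Counted per site, the starts were a median of 164.0 bp apart, and under 300 bp apart at 71 sites. The genes overlapped at 44 sites, and 13 sites were centred outside both genes.

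Named pairs show how close a site could lie to both starts. The site at Eaf1, an elongation factor partner, was 41 bp inside it and 61 bp outside Mettl6, an RNA methyltransferase. The site between Atp6v1a, a subunit of the vacuolar proton pump, and Naa50, an N-terminal acetyltransferase, was 17 bp and 72 bp from their starts. A site 16 bp inside Sap30bp lay 80 bp outside Recql5, a DNA helicase. Wdr93 and Pex11a, a peroxisome division factor, overlapped, and their site lay 65 bp inside the former and 118 bp inside the latter. The site at Urb2, a ribosome biogenesis factor, was 21 bp inside it and 121 bp outside Taf5l, a subunit of a histone acetyltransferase complex. The site of 1600012H06Rik and Wdr27 was 17 bp outside the former and 92 bp inside the latter. The remaining 4 of the 10 nearest coding pairs were not divergent starts of known strand. Gm45935 and Setdb2 start together on the same strand, the start of Copg2 lies beside the end of Tsga13, and for Foxh1 with Ppp1r16a and Iqcc with Ccdc28b a strand was unknown.

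Of the 1080 genes, 25 had 2 members and 0 had more. Of the 17 protein-coding genes among them, 11 had a member on either side of the start, with centres 541 to 1467 bp apart. Cdk9, the kinase that releases paused RNA polymerase II, had members 27 bp upstream and 614 bp downstream. Hes5, a Notch target, had them 72 bp upstream and 477 bp downstream. Vcl, which encodes the actin-linked adhesion protein vinculin, had them 137 bp upstream and 820 bp downstream. Rasgrp2, a Rap exchange factor of blood cells, had them 343 bp upstream and 583 bp downstream. Ndufa4 and Phf14 shared both of their members, with centres 568 bp apart, and Tctex1d4, Esyt1, Gm266, Cdc5l and Cdc42ep3 had the same arrangement. In Plcb2, a phospholipase C, 1 member was 41 bp inside the start and the other 853 bp beyond the end. Dusp2, Pgls and Ubtd1 likewise had a member at the start and another at the end. Gm31493 had both members inside, 408 bp and 943 bp from its start, and in Pmepa1 the strand was unknown.

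Gene lists are given as counts of genes with a member, beside the 3.87% of all protein-coding genes, with no test. The lists were chosen with earlier results of these data known. Nor was the 3.87% matched to the lists in any property of the genes, so a share above it is a description only. Of 494 list genes, 45 had a member. The highest share was in the list of pre-B and B-cell receptor signalling, with 8 of 24 genes (33.3%). Among the B-lineage transcription factors it was 2 of 25 (8.0%), among B-cell surface, recombination and homing genes 4 of 18 (22.2%), and among IL-7, PI3K and survival genes 2 of 20 (10.0%).

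The 16 genes of these 4 lists had their site 52 to 845 bp from the end, at a median of 201.0 bp. The site was outside the gene in 13 cases, where 423 of all 889 members (47.6%) were outside their nearest gene. The end was a start in 12, an end in 1 and of unknown strand in 3.
Of the receptor components, the signalling chains Cd79b and Cd79a had sites 59 bp and 153 bp outside the gene. The surrogate light chain genes Vpreb1 and Igll1 had sites 122 bp and 188 bp upstream. Vpreb3 had its site 107 bp past the gene's end, and Vpreb2 845 bp inside. Vpreb1 and Vpreb2 are near-identical, so reads could be placed at either. Below the receptor, Pik3ap1, an adaptor for phosphoinositide 3-kinase, had a site 315 bp upstream, and Plcg2, the B-cell phospholipase C gamma, 332 bp inside its start. Of the transcription factors, Foxo1 had its site 73 bp and Pou2af1, a coactivator of octamer-binding factors, 459 bp upstream.
At surface genes the sites lay outside as well. Cd37, a tetraspanin, had a site 52 bp upstream, and also a gene-end site of another class. Ceacam1, an adhesion receptor, had one 214 bp upstream. For Cd40, a costimulatory receptor, and Cd69, an activation marker, the sites were 340 bp and 579 bp outside. Il2rg had a site 70 bp upstream, and Akt2, a kinase below phosphoinositide 3-kinase, 397 bp inside its start.

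The list of actin regulation and its signalling had 8 of 35 genes with a member (22.9%), at a median of 84.5 bp. Arpc5 had a site 18 bp and Arpc1b, another Arp2/3 subunit, 35 bp upstream. Of the Vav exchange factors, Vav1 had its site 31 bp inside the start and Vav3 34 bp upstream. For Rac2, the Rac GTPase of blood cells, it was 134 bp outside, and for Ezr, the membrane-to-actin linker ezrin, 205 bp inside the start. Arhgap4, a GTPase-activating protein, had a site 486 bp upstream, and Cfl1, the actin-severing protein cofilin, 553 bp inside its end.

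**Figure D4:**
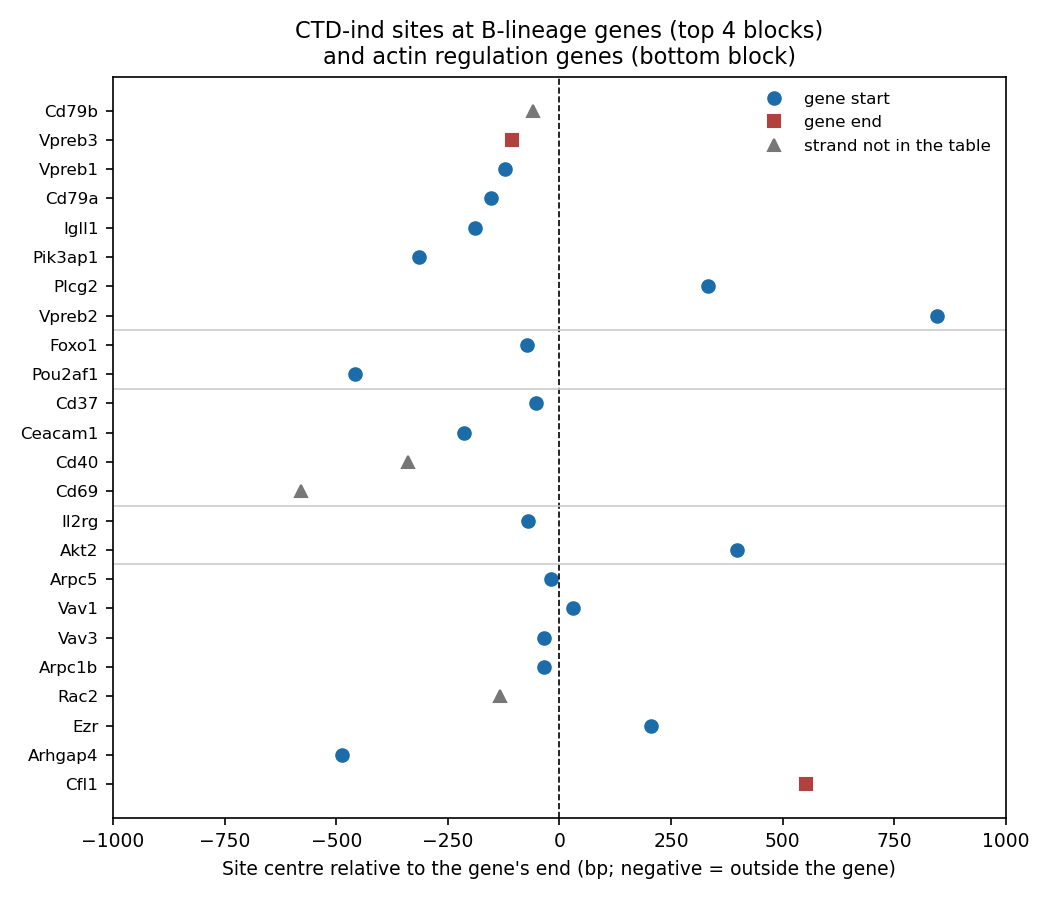
Offset of the site centre from the gene's end (x axis, bp, negative outside the gene) for the 16 B-lineage list genes (top 4 blocks) and the 8 actin regulation genes (bottom block). Circles are gene starts, squares gene ends and triangles ends of unknown strand. The sites of 13 of the 16 B-lineage genes lie outside the gene, and Vpreb2 lies farthest from its end, 845 bp inside.

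Lists outside the B lineage and actin regulation held members too. NF-kB and Toll-like receptor signalling had 4 of 28 genes (14.3%). These were Traf3, an inhibitor of non-canonical NF-kB signalling, with a site 38 bp inside its start, Tnfaip3, the NF-kB inhibitor A20, 418 bp upstream, Traf1, 265 bp past its end, and Nfkbie, an inhibitor of the IkB family, 692 bp past its end. The Nfkbie site also lay 52 bp upstream of Slc35b2, a nucleotide sulphate transporter. DNA replication and repair had 4 of 34 genes (11.8%). They were Atr, the replication stress kinase (35 bp upstream), Pola1, the primase-linked polymerase (153 bp inside), the licensing factor Cdt1 (384 bp inside) and the polymerase gene Pold1 (869 bp inside).

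Chromatin remodelling and modification had 5 of 54 genes (9.26%). Smarcd2 and Smarcd1, paralogous subunits of the BAF complex, had sites 156 bp upstream and 307 bp inside. The site at Smarcd2 also lay 134 bp inside Tcam1, and Smarcd1 had a gene-end site of another class as well. Suz12, a Polycomb subunit, had its site 344 bp upstream, Chd4, the NuRD ATPase, 666 bp inside and Kmt2c, a histone methyltransferase, 707 bp upstream. Pre-mRNA splicing had 2 of 38 genes (5.26%), Srsf9 at 116 bp and Hnrnpk at 730 bp. Cell cycle had 1 of 22 (4.55%), the mitotic kinase gene Aurkb at 255 bp, and Mediator and RNA polymerase II had 1 of 49 (2.04%), Cdk9.

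Markers of other lineages were present at a few ends. Tcf7 (98 bp upstream) and Id2 (639 bp upstream) were 2 of 22 T, NK and innate lymphoid genes (9.09%). The myeloid list had Cebpb, 205 bp upstream, 1 of 16 (6.25%), and the erythroid and hepatocyte list had Gfi1b, 82 bp inside its start, 1 of 17 (5.88%). Lists with 0 genes were neuronal (15 genes), glycolysis (19), cholesterol synthesis and uptake (19), autophagy and lysosome (29) and housekeeping (15).

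**Figure D5:**
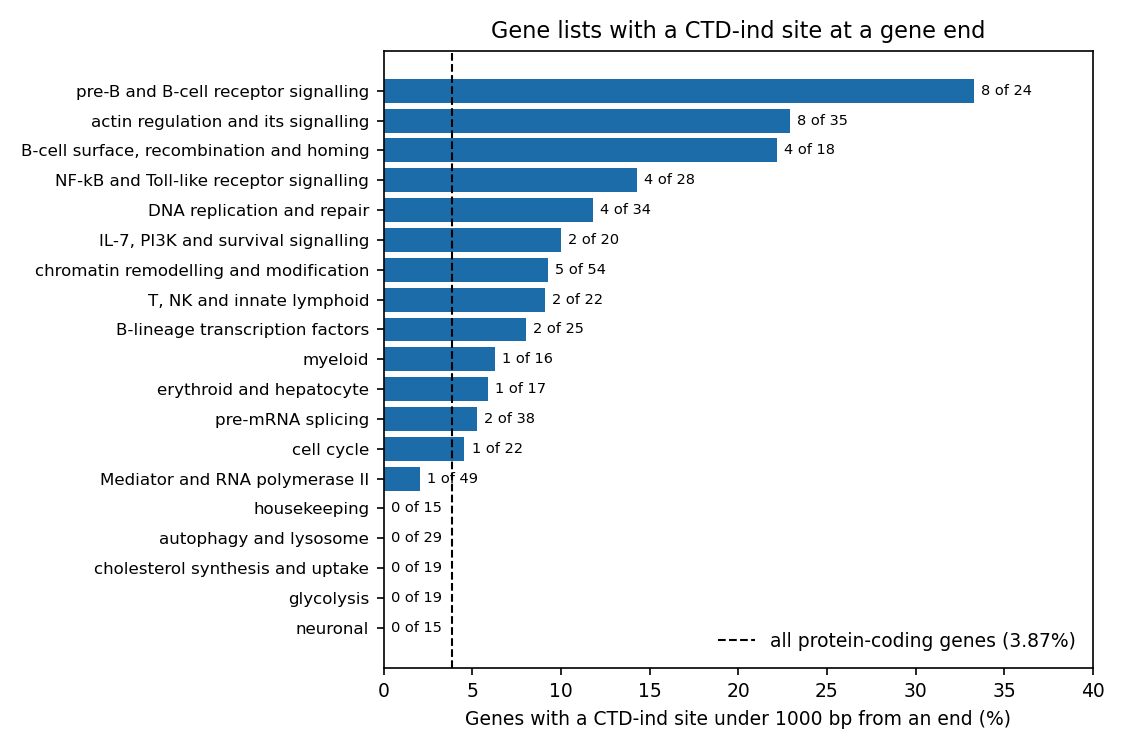
Percent of the genes of each list that had a CTD-ind site at an end (x axis) for the 19 gene lists (y axis), with the number of genes beside each bar. The dashed line is the share of all protein-coding genes, 3.87%. Pre-B and B-cell receptor signalling stands highest at 33.3%, and 5 lists stand at 0.

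Families told by their symbols, and not by function, were read against the same 3.87%. Eukaryotic initiation factors had 6 of 55 genes with a member (10.9%), among them Eif4ebp1, the translation repressor under mTOR control, at 12 bp and Eif2b2 at 133 bp. The MAP kinase cascade had 5 of 49 (10.2%), with Mapk14, the kinase p38 alpha, 151 bp inside its start. Genes with Usp symbols, mostly ubiquitin-specific proteases, had 5 of 55 (9.09%), with Usp16, a histone H2A deubiquitinase, 14 bp upstream. Proteasome subunits had 4 of 49 (8.16%) and mitochondrial ribosomal proteins 6 of 75 (8.0%), with Mrps33 at 72 bp. Genes with interleukin-type symbols had 6 of 83 (7.23%). Among them were Il6st, the shared receptor chain gp130, at 360 bp and Il6ra, the interleukin-6 receptor, 415 bp inside its end. Il4i1, at 53 bp, was counted by its symbol and is neither an interleukin nor a receptor. Rab GTPases had 4 of 59 (6.78%), and Rab8a, which acts in vesicle transport, had a site 4 bp upstream.

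Other families stood nearer to the background or below it. Zinc finger genes named Zfp had 17 of 397 (4.28%), respiratory complex I subunits 2 of 49 (4.08%) and solute carriers 11 of 375 (2.93%). Cytosolic ribosomal proteins had 4 of 84 (4.76%), at a median of 864.5 bp. Of these, Rpl23a alone had its site under 100 bp away, at 53 bp. No member lay at any of the 1109 olfactory receptors, 97 histone genes, 53 keratins, 39 Hox genes, 32 genes with Tnfsf or Tnfrsf symbols or 17 chemokine receptors. Cd40, a TNF receptor superfamily member by another symbol, had the site given above.

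Named genes outside the protein-coding biotype included microRNA, tRNA and antisense genes and antibody V segments, which encode part of a protein. Mir2861 had its site 4 bp inside an end. That site also lay 27 bp upstream of Cdk9 and 89 bp from Mir3960. Next came the antisense gene Zbtb11os1 at 20 bp, the heavy-chain segment Ighv1-85 at 25 bp, the valine tRNA gene n-TVcac8 at 46 bp and Igkv6-13 at 48 bp. Epb41l4aos lay at 53 bp, Mir7655 at 65 bp, n-TVtac2 at 99 bp and Dleu2, host of the miR-15a and miR-16 cluster, at 101 bp.
A single site lay 143 bp before Mir212 and 437 bp before Mir132. They were singled out after their values were seen because their mature 3p strands share the seed (bases 2 to 8, in capitals).
miR-212-3p (chr11:75173443-75173464, plus strand): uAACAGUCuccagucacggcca
miR-132-3p (chr11:75173723-75173744, plus strand): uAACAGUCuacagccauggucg
MicroRNA genes as a whole had 15 of 1193 with a member (1.26%), below the 2.19% of all genes. Predicted genes named Gm had 178 of 21435 (0.83%).

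Members were on all 20 chromosomes listed, from 14 on chromosome X to 92 on chromosome 11. The share of protein-coding genes with a member ran from 1.35% on chromosome X to 5.12% on chromosome 11. Chromosome X held only 24 CTD-ind sites in all, and 58.3% of them were members, the highest such share of any chromosome. The members nearest the 1000 bp limit lay at Gm24917 (990 bp), Gm35406 (993 bp) and Gm40125 (996 bp). The nearest CTD-ind sites left out lay at Gm40491 (1003 bp), Msn (1006 bp) and Lratd2 (1013 bp).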

How the data were processed

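The deposited list holds site positions (bp) and a text class that the authors gave each site; per the file headers the class is a deepTools group. Per the submitters' processing notes, Bowtie2, SAMtools and deepTools were used with GRCm38 (mm10). Neither the peak caller nor its threshold is given in the sources used here. Depth is unknown.

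Each site's centre was compared with the ends of 49209 RefSeq genes on chromosomes 1 to 19 and X (345 scaffold genes left out). Strand, starts and sequences came from RefSeq promoter windows, which held starts for 26794 genes (17274 protein-coding) and none on chromosome 18. Where strand was missing, start and end were not told apart. MicroRNA sequences came from RefSeq too.

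Classes were compared by two-sided Fisher's exact tests (scipy 1.17.1), adjusted by the Benjamini-Hochberg method over 14 comparisons, with 0.05 as threshold; 7 passed. The 14 and the 7 include distance to the end, which is given as a description only, since distance chose the members. A further 4 comparisons with YmA-ind, chosen after the data were seen, were adjusted together. Sites are not replicates, so a p describes this list only. Intervals are exact (Clopper-Pearson). The tests were checked on simulated data, with shuffled class names and with a planted difference. That check treated sites as independent, so it does not cover sites that lie near each other.

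The members, 19 gene lists (499 entries, all matched) and 30 symbol families were chosen with earlier results of these data known. Named genes were the B-lineage list members with a site, up to 8 per other list and 4 per family by distance, coding genes with 2 members, the 10 coding pairs and the 10 non-coding genes nearest to a site, and the 3 sites on each side of the limit. Families are illustrated by part of these. Alternatives changed the distance, biotypes, predicted genes, neighbouring sites, edge, offset and letters. The site of 1 family gene is not reported here by name.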

Additional observations from a re-analysis of the deposited data

How the results depend on the processing

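Of 107 alternative values of comparisons, without those of the EBF palindrome against YmA-dep, which rest on too few sites, 84 changed neither direction nor call. The shares with a protein-coding gene among the ends, at a start and with a CpG-rich window kept both under every alternative run. In size, the protein-coding difference from YmA-ind shrank from 18.8 to 7.63 percentage points without predicted genes named Gm or Rik. The 107 and 84 values include the share under 100 bp from the end, called the distance value below. It is a description with no call, since distance chose the members. Values below are CTD-ind minus the other class in percentage points, and the cause of the changes was not tested. With ends under 500 bp, calls against YmA-ind were lost for upstream of the start (-7.64) and opposite starts (15.2), and the distance value was 3.89. With ends under 2000 bp, calls appeared for ends of 2 or more genes against YmA-dep (11.8) and the full EBF palindrome against YmA-ind (6.95). The share outside every gene against YmA-ind turned to -0.0775, and the distance value against YmA-dep was 9.06. With protein-coding genes only, ends of 2 or more genes against YmA-ind lost its call (1.34), and the full EBF palindrome against YmA-ind (10.2) gained one. The share outside every gene against YmA-ind turned to -4.13, and the distance value against YmA-dep was 20.2. Without predicted genes named Gm or Rik, ends of 2 or more genes lost its call against YmA-ind (2.71) and gained one against YmA-dep (11.5). The full EBF palindrome against YmA-ind passed (10.3). The share outside every gene against YmA-ind turned to -0.737, and the distance value against YmA-ind was 3.77. With 1 site per run, another site within 10 kb (-4.78) lost its call against YmA-ind, and the distance value was 4.76. From the nearest edge, the share outside every gene against YmA-ind turned to -4.91, ends of 2 or more genes against YmA-dep passed (11.9) and the upstream share lost its call (-6.84). With an offset of 200 bp the distance value against YmA-ind was 4.25, and the letters CCCNNGGG against YmA-ind passed (15.0). Restricting the letters to the site or to windows holding its centre, both added after the data were seen, changed no call. The number of members ran from 639 (under 500 bp) to 1155 (under 2000 bp), and of list genes with a member from 36 to 54. No paired analysis was possible because each group has 1 library.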

Other observations

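Small gene families, some with members in the lists above, were looked at after the data were seen. A scan of 1427 symbol stems gave the Pank, Arpc, Kmt and Hspa genes, and the BCL7 and 14-3-3 groups were put together by hand. All were picked for their counts, so their shares cannot be read against the 3.87% of all protein-coding genes. All 3 BCL7 genes, which encode subunits of the BAF chromatin remodelling complex, had a member (by stem, 3 of 20 genes named Bcl), Bcl7b 18 bp upstream, Bcl7a 74 bp outside and Bcl7c 507 bp inside its start. The Bcl7c site also lay 228 bp from Mir762. Of 4 pantothenate kinase genes, the enzymes that start coenzyme A synthesis, 3 had a member, Pank3 at 97 bp, Pank4 at 446 bp and Pank2 at 872 bp. Of 7 Arp2/3 genes named Arpc, 3 had a member, Arpc5 and Arpc1b described above and Arpc4, 354 bp upstream. Of 8 histone methyltransferase genes named Kmt, 3 had a member, Kmt2e at 18 bp, Kmt5c at 474 bp and Kmt2c at 707 bp. Of 6 genes of 14-3-3 proteins, 3 had a member, Ywhab at 196 bp, Ywhag at 279 bp and Ywhae at 687 bp.

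Heat-shock genes named Hspa had a member at 4 of 13. Hspa1b had its site 127 bp upstream, Hspa1a 147 bp and Hspa1l 400 bp upstream with a shared site, and Hspa8 442 bp outside. Hspa1a and Hspa1b are near-identical, so reads could be placed at either. Fyn, a Src-family kinase, had a site 2 bp inside its start that also lay 133 bp from Gm31616. A site 1 bp upstream of Lnx2 lay 142 bp from the start of Polr1d, a subunit of RNA polymerases I and III. Tln1, which encodes the integrin-linked protein talin, had a site 51 bp inside its start, 126 bp upstream of Creb3.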
